A study of Mus musculus with 2 samples.

Results

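P2Y14, the receptor encoded by P2ry14, was followed here together with 9 other genes of purinergic signaling in the mouse uterus before implantation. The set holds the nucleotide receptors P2ry14, P2ry1, P2ry2, P2ry6 and P2rx4, the enzymes Entpd1, Entpd2 and Nt5e, and the adenosine receptors Adora1 and Adora2b. All 10 genes were found by symbol among the 14678 genes of the table. P2ry14 was picked for its large difference between the libraries and the others for their place in the same pathway, with copy numbers of these libraries already known. The values of the 10 genes are therefore a description, and no test was made on them.

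Both groups of mice were double transgenic (VEGFtetO/tetO/beta-AKtg/wt). They carry tet operator sequences in the Vegfa promoter and express the repressor tetR-Krab from a beta-actin promoter in all tissues, so that the repression is not limited to the uterus or to 1 cell type. Dox+ females ate chow with 200 mg/kg doxycycline, which keeps the repressor off the promoter, and are labelled VEGF-normal. Dox− littermates were moved to regular chow at 3 to 4 weeks of age, 6 weeks before collection, and are labelled VEGF-repression. Uteri were taken at gestation day 2.5 from females of 9 to 10 weeks. RNA of 3 uteri was pooled for each group and sequenced as 1 digital gene expression (DGE) library, in which short tags are counted per gene. A Dox+ female had doxycycline in the body and a Dox− female did not, so that effects of the drug and of VEGF cannot be told apart. With 1 library per group a difference has no replicate check.

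Cells release ATP, UTP and sugar nucleotides, which act on neighbouring cells through P2 receptors. P2X receptors are ion channels opened by ATP, and P2Y receptors are G protein-coupled receptors. P2Y14 responds to UDP-glucose and UDP and couples to Gi, P2Y1 responds to ADP, P2Y2 to ATP and UTP, and P2Y6 to UDP. Enzymes on the cell surface end these signals. The product of Entpd1 (CD39) cuts ATP and ADP to AMP, that of Entpd2 prefers ATP, and that of Nt5e (CD73) turns AMP into adenosine, which acts on receptors such as A1 (Adora1) and A2B (Adora2b). In the female reproductive tract P2Y14 is known from the epithelium, where it has been tied to mucosal defense.

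P2ry14 (gene ID 140795) lies on chromosome 3 from 58918548 to 58934546 of NCBIM37, the assembly also called mm9, on the minus strand. The annotation lists 2 transcripts, and the whole coding sequence of 1014 bases without the stop codon sits in 1 exon. The pair of primers with which the study measured P2ry14 by qPCR is shown because it marks the stretch of the transcript measured by that second method, whose values were not analysed here.
P2ry14 qPCR primer named forward: aaggcaagcttcgtcaacag
P2ry14 qPCR primer named reverse: agccagacgtgaaggagttc
The primer named forward matched the plus strand at chr3:58920162-58920181, and the primer named reverse matched the minus strand, which is the strand of the gene, at chr3:58934487-58934506. Both sites are in exons outside the coding sequence. The sites are 14345 bases apart on the chromosome, ends included, and enclose 143 bases in both annotated transcripts, since the intron between them is removed.

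The 250 bases before the annotated start are shown for P2ry14 and Entpd2, the only members past 1.5-fold at 200 or more tags in both libraries together, and for Nt5e, which had the lowest ratio of the 10 genes. Capitals mark every match, on either strand, to 1 of 7 searched motifs, and overlapping matches run together. The motifs were TATAAA (the box bound by TBP), ACGTG (core of the hypoxia response element), GGGCGG (the GC box), TGANTCA (the AP-1 site), GGTCA (core letters of the estrogen response element), AGATAA (bound by factors of the GATA family) and CACGTG (an E-box, which contains ACGTG).
P2ry14, chr3:58934547-58934796, minus strand: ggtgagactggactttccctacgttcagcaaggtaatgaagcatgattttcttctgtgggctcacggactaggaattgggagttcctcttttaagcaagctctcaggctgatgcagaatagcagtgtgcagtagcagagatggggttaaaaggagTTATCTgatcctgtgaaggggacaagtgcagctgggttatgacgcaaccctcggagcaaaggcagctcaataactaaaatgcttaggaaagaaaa
Entpd2, chr2:25251144-25251393, plus strand: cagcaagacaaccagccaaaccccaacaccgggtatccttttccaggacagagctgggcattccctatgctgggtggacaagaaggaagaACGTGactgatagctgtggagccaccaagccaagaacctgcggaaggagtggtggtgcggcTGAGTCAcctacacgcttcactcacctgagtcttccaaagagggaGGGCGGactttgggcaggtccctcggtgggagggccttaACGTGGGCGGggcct
Nt5e, chr9:88222197-88222446, plus strand: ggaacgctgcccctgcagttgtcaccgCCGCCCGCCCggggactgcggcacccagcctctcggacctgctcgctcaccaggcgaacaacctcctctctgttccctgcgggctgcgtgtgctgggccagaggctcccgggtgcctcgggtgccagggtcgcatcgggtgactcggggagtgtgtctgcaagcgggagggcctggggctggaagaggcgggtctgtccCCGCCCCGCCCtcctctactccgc
The P2ry14 stretch had a GC content of 46.8% and 4 CpG pairs, and the other 9 members ranged from 59.2% to 72.0%. Over all 22371 protein-coding genes with such a stretch the median was 54.0%, and 26.3% of them had a lower GC content than P2ry14. The GATA letters were found in P2ry14 alone among the 10 members and in 9.33% of all promoters. Entpd2 held the ACGTG letters, which 17.5% of all promoters hold, at 2 places. The GGGCGG letters were in 7 of the 10 members, among them Entpd2 and Nt5e, and in 39.6% of all promoters. A match of letters is not a known binding site.

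The Dox+ library had 5985925 clean tags and the Dox− library 5844314, as implied by the deposited counts and TPM values, and 74.1% and 72.2% of them were counted in a gene. TPM here is the copy number scaled to the clean tags of the library, with no correction for length, so levels were compared between libraries and not between genes. Vegfa, the repressed gene, had 247 copies in Dox+ and 125 in Dox−, 1.93-fold lower (95% interval 1.55 to 2.41). The interval is an exact Clopper-Pearson interval of how the gene's tags divide between the libraries and covers counting error alone, as do all intervals below. Tissue markers were present in both libraries. The estrogen receptor gene Esr1 had 165 copies in Dox+ and 262 in Dox−, and the progesterone receptor gene Pgr had 687 and 1251. Each of the 7 uterus markers differed by more than 1.5-fold, with 4 higher and 3 lower in Dox−. Among all 6547 genes with at least 200 copies over both libraries, 29.9% differed by at least 1.5-fold.

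**Figure D1:**
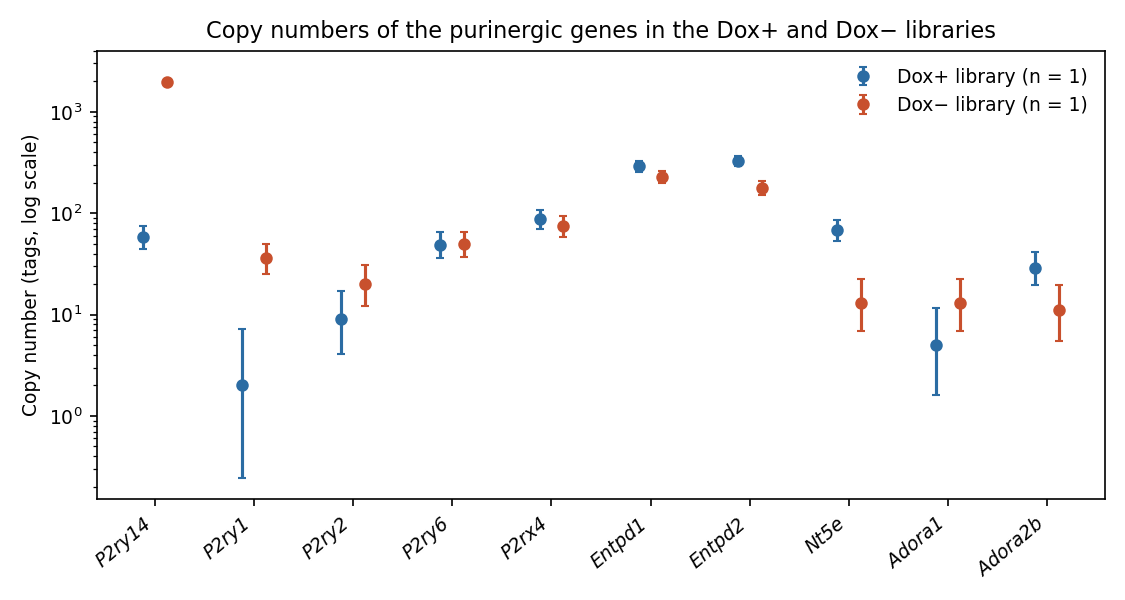
Copy number (tags, log scale) of each of the 10 genes in the Dox+ and Dox− libraries, 1 library each. Points are the deposited counts and bars are exact 95% Poisson intervals. P2ry14 stands at 58 copies in Dox+ and 1985 in Dox−, and the bars of P2ry6 (49 and 50 copies) and P2rx4 (87 and 74) overlap widely.

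Among the P2Y receptors, P2ry14 had the highest ratio of Dox− over Dox+. It had 58 copies (9.69 TPM) in the Dox+ library and 1985 copies (340 TPM) in the Dox− library. The exact 95% Poisson intervals of these counts ran from 44.0 to 75.0 and from 1899 to 2074. They cover counting error alone, and P2ry14 was picked for this difference. P2ry14 was 35.1-fold higher in Dox− (95% interval 27.0 to 46.3), a log2 ratio of 5.13. Among the 6547 genes that reached 200 tags in both libraries together, its ratio ranked 7 from the top, while 95% of these genes had a log2 ratio below 0.97. No stretch of 21 bases in its annotated transcripts occurs, read in the same sense, in a protein-coding transcript of another gene.

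P2ry1 (chromosome 3, 60806717 to 60812901), the ADP receptor of platelets and other cells, was also higher in Dox−. It had 2 copies in Dox+ and 36 in Dox−, a ratio of 18.4 with an interval from 4.75 to 158, wide since it rests on so few Dox+ tags. Tags seen only once had been removed before counting, so a count this small is rough on the low side too. The interval of P2ry1 holds the P2ry14 ratio of 35.1, so these counts do not set the ratios of P2ry1 and P2ry14 apart. P2ry2 (chromosome 7, 108145086 to 108160505), the receptor for ATP and UTP, had 9 copies in Dox+ and 20 in Dox−. Its ratio of 2.28 had an interval from 0.991 to 5.68, which holds 1. P2ry6 (chromosome 7, 108086152 to 108112905), the UDP receptor, had 49 and 50 copies. Its ratio of 1.05 had an interval from 0.690 to 1.58, so that these counts allow any ratio in that range, lower or higher.

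Of the 7 listed P2Y receptors, 6 were in the table. P2ry12, an ADP receptor of platelets and microglia, had 16 copies in Dox+ and 19 in Dox−, and P2ry13, a related ADP receptor, had 4 copies in both. All intervals of the receptors other than P2ry14 and P2ry1 held 1. P2ry14 contributed 58 of the 138 P2Y tags in Dox+, or 42.0% (exact 95% interval 33.7 to 50.7). In Dox− it contributed 1985 of 2114, or 93.9% (92.8 to 94.9). These are shares of tags, which need not be shares of transcripts. The other P2Y receptors together had 80 tags in Dox+ and 129 in Dox−, 1.65-fold higher (1.24 to 2.21). P2ry1 alone held 2 of these tags in Dox+ and 36 in Dox−, so the sum does not show a rise shared by the family. In the gene ontology column of the table, 3 genes carry the term uridine nucleotide receptor activity, and they were P2ry14, P2ry2 and P2ry6. Thus the UDP-responding receptors P2ry14 and P2ry6 had ratios of 35.1 and 1.05.

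**Figure D2:**
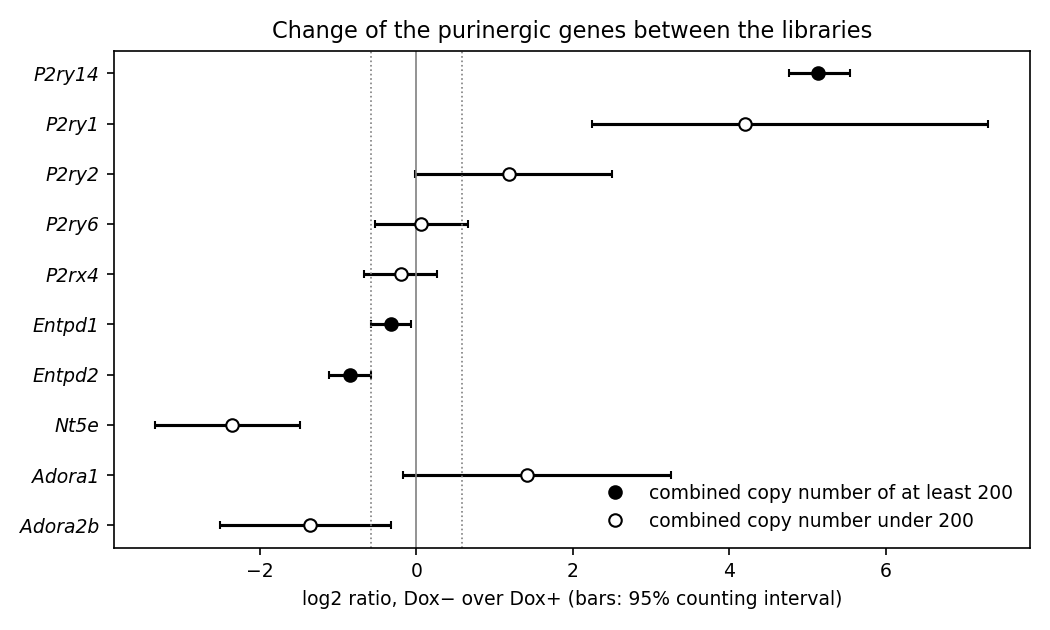
log2 ratio of Dox− over Dox+ for each of the 10 genes, with 95% counting intervals as bars. Filled points have at least 200 combined copies, and dotted lines mark 1.5-fold in each direction. P2ry14 lies at 5.13, Nt5e at -2.35, and the bars of P2ry2, P2ry6, P2rx4 and Adora1 cross 0.

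P2rx4 (chromosome 5, 123157593 to 123179747) encodes an ATP-gated channel found on epithelium, endothelium and macrophages. It had 87 copies in Dox+ and 74 in Dox−, with a ratio of 0.871 (0.630 to 1.20). All 7 listed P2X genes were in the table, and none reached 200 combined copies. P2rx7, a channel best known from macrophages, had 50 copies in Dox+ and 82 in Dox−, 1.68-fold higher (1.17 to 2.44). P2rx6 had 37 and 27 copies, with an interval that held 1. P2rx1, a channel of smooth muscle, platelets and neutrophils, had no tag in Dox+ and 13 in Dox−. With the 0 set to 3 copies, its ratio was 4.44, a value that leaves out counting error. The 7 genes together had 186 and 212 tags, and their ratio of 1.17 had an interval from 0.954 to 1.43.

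The 3 enzymes of the set were lower in Dox−. Entpd2 (chromosome 2, 25251394 to 25256843) had 328 copies (54.8 TPM) in Dox+ and 178 copies (30.5 TPM) in Dox−. It was 1.80-fold lower in Dox− (1.49 to 2.17), or -0.85 on the log2 scale. Entpd1 (chromosome 19, 40686856 to 40816092) had 290 copies in Dox+ and 227 in Dox−, 1.25-fold lower (1.05 to 1.49), which is less than 1.5-fold. Nt5e (chromosome 9, 88222447 to 88266927) had 68 copies in Dox+ and 13 in Dox−, 5.11-fold lower (2.80 to 10.1). The intervals of Entpd2 and Nt5e do not overlap, and neither gene's interval holds 1. Entpd3, a further surface enzyme of this family that is no member of the set, went the other way with 6 copies in Dox+ and 22 in Dox−. Entpd1, Entpd2, Entpd3 and Nt5e together had 692 tags in Dox+ and 440 in Dox−, a ratio of 0.651 (0.577 to 0.735).

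Of 17 listed symbols for ectonucleotidases and phosphatases, in which Acpp and Acp3 name the same gene, 15 were in the table. Of these, 8 had at least 200 combined copies. Among these 8, 2 were at least 1.5-fold higher in Dox−, 3 were at least 1.5-fold lower and 3 were within 1.5-fold, beside 15.2% higher and 14.7% lower among all 6547 genes with that many copies. Their median log2 ratio was -0.33, against 0.03 over all these genes. Alpl, the tissue-nonspecific alkaline phosphatase, which can strip phosphates from nucleotides down to adenosine, had 47 copies in Dox+ and 282 in Dox−, 6.14-fold higher (4.50 to 8.56). Enpp4, a surface hydrolase of nucleotides, had 87 and 137 copies, 1.61-fold higher (1.22 to 2.13). Enpp3, another surface pyrophosphatase, had 306 copies in Dox+ and 156 in Dox−, 1.92-fold lower (1.57 to 2.34). Entpd4, an enzyme of the Golgi and lysosomes, had 158 and 66 copies, 2.34-fold lower (1.74 to 3.16). Below 200 combined copies, Acpp, an acid phosphatase that can cut AMP, had 147 copies in Dox+ and 21 in Dox−, 6.83-fold lower (4.31 to 11.4). Thus CD73 and Acpp, which both can make adenosine from AMP, were lower in Dox−, and Alpl was higher.

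Both adenosine receptors of the set had few tags. Adora2b (chromosome 11, 62062486 to 62079955), a Gs-coupled receptor with low affinity for adenosine, had 29 copies in Dox+ and 11 in Dox−, 2.57-fold lower (1.25 to 5.71). Adora1 (chromosome 1, 136095800 to 136132008), a Gi-coupled receptor, had 5 copies in Dox+ and 13 in Dox−. Its ratio of 2.66 had an interval from 0.891 to 9.54, which holds 1. The other two adenosine receptors had 17 copies in Dox+ and 5 in Dox− (Adora2a, Gs-coupled) and 3 and 9 (Adora3, Gi-coupled). Both Gs-coupled receptors had intervals below 1, and both Gi-coupled receptors had intervals that held 1. Among all genes under 200 combined copies, 16.2% had an interval below 1. All 4 together had 54 and 38 tags, and their ratio of 0.721 had an interval from 0.463 to 1.11.

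**Figure D3:**
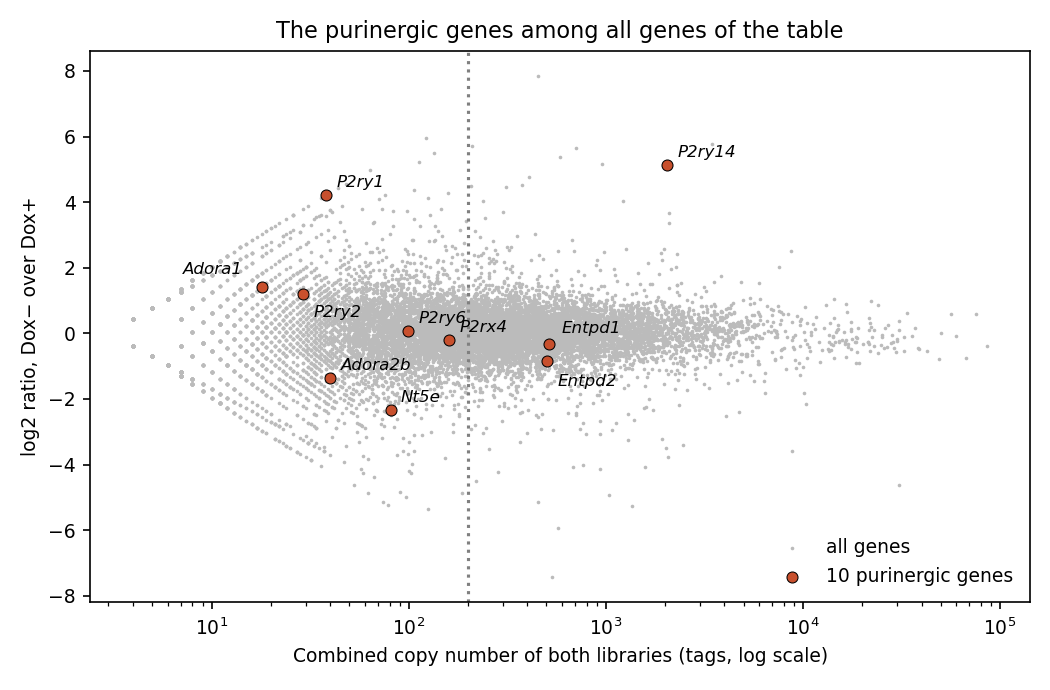
log2 ratio of Dox− over Dox+ against the combined copy number of both libraries (tags, log scale) for every gene with more than 3 copies in either library, with the 10 purinergic genes in color. The dotted line marks 200 combined copies, and a count of 0 was set to 3. P2ry14 lies above nearly all genes of its abundance, and 7 of the 10 genes lie left of the line.

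Only 3 of the 10 members had at least 200 combined copies, P2ry14, Entpd1 and Entpd2. Of these, P2ry14 was at least 1.5-fold higher in Dox−, Entpd2 was at least 1.5-fold lower, and Entpd1 was within 1.5-fold. Among all genes with that many copies, 15.2% were at least 1.5-fold higher, 14.7% at least 1.5-fold lower and 29.9% either. Of the 7 members under 200 combined copies, P2ry1, Nt5e and Adora2b had an interval that did not hold 1. Among all genes under 200 combined copies, 32.6% had such an interval. Over both classes 6 of the 10 members had an interval off 1, 2 above and 4 below. Among all 14678 genes 47.6% had such an interval, 24.6% above 1 and 23% below. Nothing is read from these counts, since the members were picked with the values known.

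Other genes of the pathway were taken from lists of 9 roles, which hold 100 gene symbols and include the members. Some genes are listed under both an old and a new symbol. Outside the 10 members, 79 of 90 listed symbols were in the table and 30 had at least 200 combined copies. Among the 30, 7 were at least 1.5-fold higher in Dox− and 7 at least 1.5-fold lower, beside 15.2% and 14.7% of all genes with that many copies. The median log2 ratio of the 30 was 0.03, and that of all 6547 genes was also 0.03.

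UDP-glucose, the ligand of P2Y14, is made by UDP-glucose pyrophosphorylase (Ugp2), which had 1242 copies in Dox+ and 842 in Dox−, 1.44-fold lower (1.32 to 1.57). Of 17 listed genes of UDP-sugar synthesis and transport, all were in the table and 7 had at least 200 combined copies. Of the 7, 3 were at least 1.5-fold higher in Dox− and none at least 1.5-fold lower, beside 15.2% and 14.7% of all genes with that many copies. From 100 combined copies, 4 of 12 were higher and 1 was lower, beside 1472 and 1384 of all 8856 genes with that many. At an absolute log2 ratio above 0.5, 4 of the 7 were higher and 1 was lower, beside 1231 and 1168 of all 6547 genes. The median log2 ratio of the 7 was 0.52, against 0.03 over all 6547 genes. Slc35a2, the UDP-galactose carrier of the Golgi, had 63 copies in Dox+ and 163 in Dox−, 2.65-fold higher (1.97 to 3.60). Uap1, which makes UDP-N-acetylglucosamine, had 123 and 191 copies, 1.59-fold higher (1.26 to 2.01). Ugdh, which oxidizes UDP-glucose to UDP-glucuronic acid, had 180 and 277 copies, 1.58-fold higher (1.30 to 1.91). Uggt1, which uses UDP-glucose to mark misfolded glycoproteins, had 387 copies in Dox+ and 541 in Dox−, 1.43-fold higher (1.25 to 1.64). Galk1, the galactokinase, had 303 and 297 copies. The transporter Slc35d2 had 10 copies in Dox+ and 3 in Dox−, with an interval that held 1.

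Release channels had few tags. Panx1, the pannexin through which many cells release ATP, had 106 copies in Dox+ and 91 in Dox− (ratio 0.879, 0.657 to 1.17). Slc17a9, which loads ATP into vesicles, had 13 and 26 copies, with a ratio of 2.05 (1.01 to 4.34). Calhm2 had 22 and 25 copies. No gene of this list reached 200 combined copies, so that none could be counted past 1.5-fold.

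Adenosine carriers differed in opposite directions. Slc29a1, the equilibrative nucleoside transporter ENT1, had 551 copies in Dox+ and 175 in Dox−, 3.07-fold lower (2.59 to 3.67). Slc28a3, the concentrative transporter CNT3, had 27 copies in Dox+ and 202 in Dox−, 7.66-fold higher (5.11 to 11.9). Of 5 genes of adenosine uptake and breakdown with at least 200 combined copies these were the only ones past 1.5-fold, beside 29.9% of all genes with that many copies. Adk, the adenosine kinase, had 545 and 369 copies, 1.44-fold lower (1.26 to 1.65), and Pnp, the purine nucleoside phosphorylase, had 313 and 393, 1.29-fold higher (1.11 to 1.5). Under 200 combined copies, Ada, the adenosine deaminase, had 31 copies in Dox+ and 110 in Dox−, 3.63-fold higher (2.42 to 5.60).

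**Figure D4:**
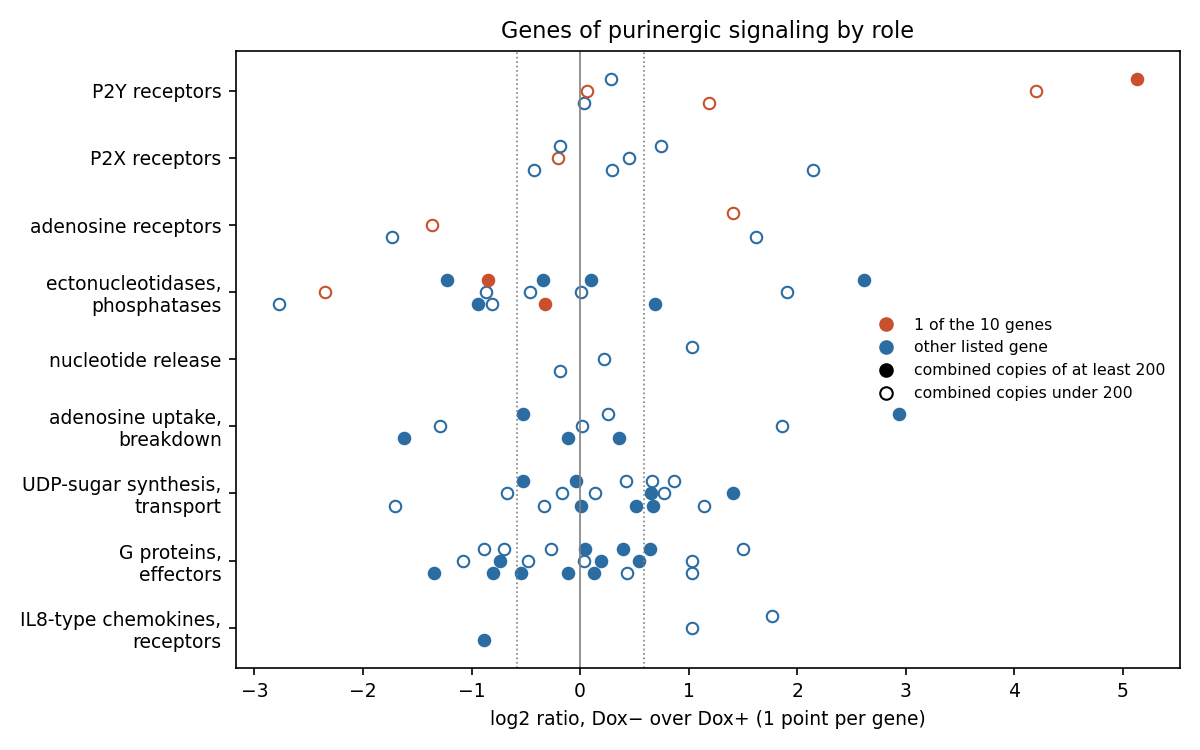
log2 ratio of Dox− over Dox+ for each gene of the 9 lists with more than 3 copies in either library, 1 point per gene, grouped by role. Filled points have at least 200 combined copies, dotted lines mark 1.5-fold, and a count of 0 was set to 3. P2ry14 at 5.13 is the highest point, and every other list has points on both sides of 0. All 6 P2Y points lie above 0, but 4 of them have intervals that hold 1. P2ry13 at 0.035 and P2ry6 at 0.064 lie close to the all-gene median of 0.03.

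P2ry14 lies in a group of related receptor genes, and 5 neighbours within 250000 bases were compared in the same libraries. Med12l, a mediator subunit gene on the plus strand from 58810900 to 59122332, spans the whole of P2ry14 on the opposite strand. It had 13 copies in Dox+ and 30 in Dox−, 2.36-fold higher (1.20 to 4.94). The table does not name the strand of its tags, and introns and the opposite strand were not covered by the comparison of 21-base stretches above. Gpr171, a receptor gene with a gap of 12805 bases to P2ry14, had 11 and 28 copies, 2.61-fold higher (1.26 to 5.80). P2ry13 and P2ry12, with gaps of 77272 and 85647 bases, had 4 and 4 and 16 and 19 copies. Igsf10, a secreted immunoglobulin superfamily gene with a gap of 186111 bases, had 310 copies in Dox+ and 705 in Dox−, 2.33-fold higher (2.03 to 2.67). The interval of P2ry14, from 27.0 to 46.3, lay above that of each of these 5 neighbours.

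**Figure D5:**
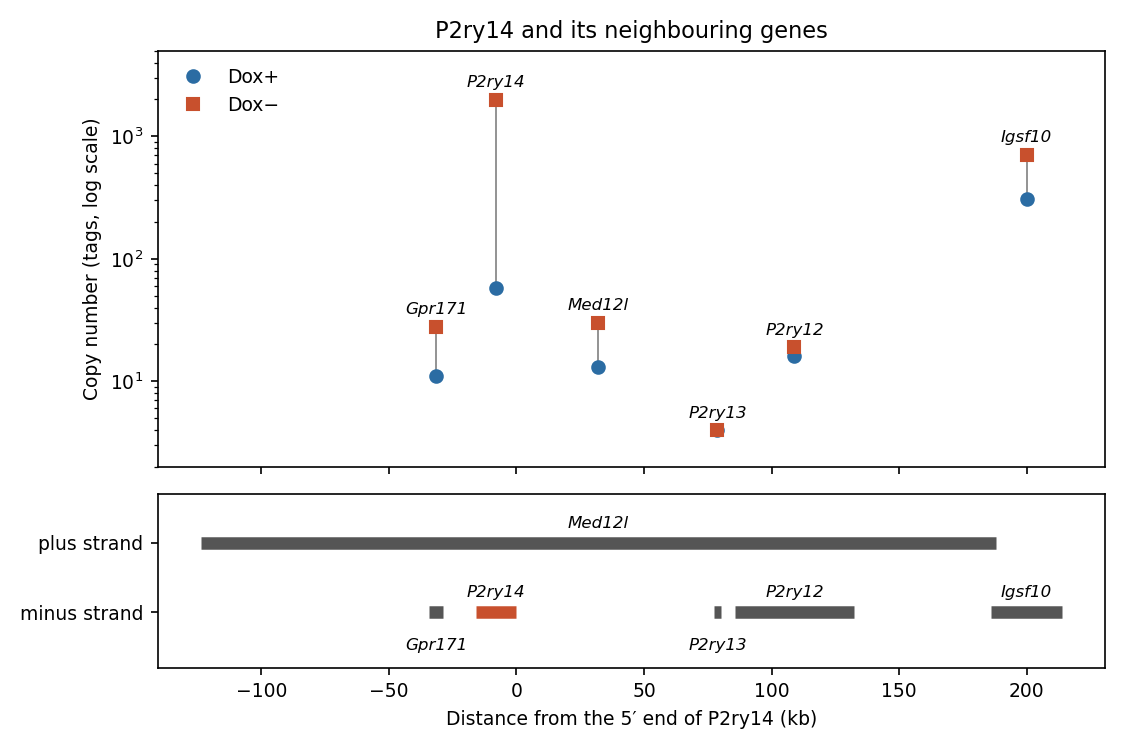
Copy number (tags, log scale, upper panel) of P2ry14 and its neighbours in the Dox+ and Dox− libraries, at the middle of each gene, and the extent and strand of each gene (lower panel), by distance in kb from the 5′ end of P2ry14. P2ry14 goes from 58 to 1985 copies, Igsf10 from 310 to 705, and the equal counts of P2ry13 lie on top of each other.

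The 5 genes with a log2 ratio nearest to that of P2ry14, among genes with at least 200 combined copies, were Lcn2, Ptpn5, Padi1, Spink12 and Crtac1. Their distances were from 0.017 to 0.58 on the log2 scale. This likeness rests on 2 libraries and says that the genes had similar ratios. Lcn2, the secreted iron-siderophore binder lipocalin 2, had 27 copies in Dox+ and 935 in Dox−, 35.5-fold higher (24.2 to 54.1). Padi1, a peptidylarginine deiminase, had 15 and 395 copies, 27.0-fold higher (16.1 to 48.7).

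Markers of other cells were read in the same libraries, since in pooled uteri a change in the number of cells of a type and a change in RNA per cell cannot be told apart. Among all 14678 genes 24.6% had an interval above 1 and 23% below. Intervals off 1 were less frequent at low copy number, 32.6% under 200 combined copies against 47.6% over all genes. Of 9 epithelial markers, 6 had an interval above 1 and 2 below. Their sum was 6574 tags in Dox+ and 7306 in Dox−, 1.14-fold higher (1.10 to 1.18). Epcam had 467 and 821 copies and Krt7 179 and 600, while Cldn3 had 1482 and 494. Of 5 listed neutrophil markers, 3 were in the table (S100a8, S100a9 and Mpo), all with an interval above 1, and their sum was 42 tags in Dox+ and 216 in Dox−. Of 8 listed symbols for macrophage and leukocyte markers, in which Emr1 and Adgre1 name the same gene, 7 were in the table. Of these 7, 3 had an interval above 1 and none below, with 531 tags in Dox+ and 701 in Dox−. Those above were Ptprc, which marks all leukocytes, with 49 and 130 copies, Itgam with 45 and 97, and Emr1 with 70 and 102. The other 4 had intervals that held 1, among them Csf1r with 186 and 181 copies and Aif1 with 146 and 152. The part of these cells in the values of P2ry14, P2ry1, P2rx1 and P2rx7 was not tested.

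Other markers were lower in Dox−, as were the 3 enzymes of the set and the adenosine receptor genes Adora2b and Adora2a. Adora1 and Adora3 had more tags in Dox− than in Dox+, with intervals that held 1. All 4 mast cell markers had an interval below 1, beside 23% of all 14678 genes. Their sum was 287 tags in Dox+ and 22 in Dox−, and Mcpt4 had no tag in Dox−. All 6 smooth muscle markers were lower as well, from a sum of 31462 to 21115, a ratio of 0.687 (0.675 to 0.700). With 2575 or more combined copies each, these markers had narrow intervals that leave 1 readily. Of 8 endothelial markers 4 had an interval below 1 and none above, with 1298 and 876 tags, a ratio of 0.691 (0.634 to 0.754). The stroma markers had 3 intervals above 1 and 4 below, the 3 adipocyte markers 2 below, and both skeletal muscle markers in the table, of 4 listed, lay below 1. Platelet markers, 3 of 4 in the table, had 74 tags in Dox+ and 50 in Dox− with intervals that held 1, and the 5 lymphocyte markers had 73 and 84 tags. The part of these cells in the values of the enzymes and receptors was not tested.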

How the data were processed

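The table of counts deposited by the authors gives, for each gene, the clean tags found in the Dox+ and in the Dox− library. Before counting, the authors removed adaptor-only, low quality and once-seen tags. TPM in the deposited table is each count scaled by the authors to the clean tags of its library, not corrected for gene length, and 0.01 stands where the count is 0. The submitters' processing notes name CASAVA and mm9, and the aligner is not given in the sources used here. The labels mention fragmentation of the mRNA while the methods describe tag profiling, and this was not resolved. The authors' ratios, P-values and FDR of the same comparison were not used.

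Library totals were taken from the counts and TPM. Ratios were computed from the counts per library total, a count of 0 was set to 3, and no ratio was taken where both libraries had 3 copies or fewer. Intervals at 95% are exact (Clopper-Pearson for shares and ratios, Poisson for counts). Only genes that reached 200 copies over both libraries were counted past 1.5-fold. The study's test of Audic and Claverie compares the libraries and not the conditions, and with 1 library per group no P-value is given.

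The 10 members, 9 role lists and 12 marker lists were chosen with earlier results of these data known. Named are the members, Vegfa, list genes past 1.5-fold, the 3 genes of a list with the most copies, the 5 genes nearest in ratio to P2ry14 and its neighbours. Other list and marker genes were named after their values were seen. Positions, exons and sequences are from GENCODE on NCBIM37, and primers from the study's primer list. Alternatives were other library scalings (edgeR 4.0.16), a pseudocount of 1, TPM, other filters and other thresholds. The intervals and 1.5-fold counts were tested on simulated data with counting error alone, so the spread between pools was not covered. Python 3.11.15, scipy 1.17.1, pandas 2.3.3 and R 4.3.3 were used.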

Additional observations from a re-analysis of the deposited data

How the results depend on the processing

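Each of the 10 members was recomputed under 5 alternatives: the sum of counts as library size, TMM factors, RLE factors, a pseudocount of 1, and TPM in place of counts. All 50 log2 ratios kept their sign and lay inside the member's 95% interval, and that of P2ry14 ranged from 5.10 to 5.17. TPM is the same count over the same library total, so its values matched by construction apart from rounding. The scalings moved the median log2 ratio of all genes by only -0.034 to 0.038. They could thus hardly take a ratio outside its interval. Counts depended on the filter. Past 1.5-fold were 2 of 3 members, against 6 of 9 from a combined copy number of 20 and 7 of 10 with no filter. At 2-fold 1 of 3 members passed. By the interval, an alternative chosen after seeing the data, 6 of the 10 members were off 1, beside 47.6% of all genes. Of the listed pathway genes 16 of 33 were past 1.5-fold. The count was 36 of 70 from a combined copy number of 20, 46 of 85 with no filter and 7 of 33 at 2-fold. Over all genes there were 1955 of 6547, against 4641 of 12079, 5768 of 13727 and 670 of 6547. More genes enter with a lower filter, and fewer pass a higher fold by construction. Under the 5 alternatives of scaling and values the pathway count was 16 to 17. No replicate could be left out, and no paired analysis was possible because each group has 1 library. Depth limits the 7 members with fewer than 200 combined copies most, and the true spread between pools is unknown.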

Other observations

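The G proteins and effector enzymes that lie downstream of these receptors were listed as well. Of 22 genes, 21 were in the table and 11 had at least 200 combined copies, of which 1 was at least 1.5-fold higher in Dox− and 3 at least 1.5-fold lower. Among all genes with that many copies 15.2% were higher, 14.7% lower and 29.9% either. These 11 had a median log2 ratio of 0.05. Gnai1, a Gi subunit, had 328 copies in Dox+ and 126 in Dox−, 2.54-fold lower (2.06 to 3.15). Gnai2, the Gi subunit with the most copies, had 1684 and 2403, 1.46-fold higher (1.37 to 1.56), and Gnai3 had 335 and 303 with an interval that held 1. The 3 genes for Gi alpha subunits named here thus had ratios on both sides of 1. Gna14, of the Gq class, had 134 and 75 copies, 1.74-fold lower (1.31 to 2.35), and Adcy7, an adenylate cyclase, had 142 and 83, 1.67-fold lower (1.27 to 2.22). Plcb3, a phospholipase C that Gq activates, had 251 and 383 copies, 1.56-fold higher (1.33 to 1.84). Gnas, which encodes the Gs subunit, had 2291 copies in Dox+ and 2935 in Dox−, and Gna11, of the Gq class, had 581 and 389.

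IL8 is the chemokine that has been linked to P2Y14 in the human endometrium. Mice lack a direct copy of it, and of 9 listed symbols for related chemokines and their receptors 5 were in the table. Cxcl15 had 254 copies in Dox+ and 134 in Dox−, 1.85-fold lower (1.5 to 2.30). Cxcl5 had no tag in Dox+ and 10 in Dox−, a ratio of 3.41 when the 0 is set to 3 copies and counting error is left out. Cxcl2 had 0 and 6 copies, Cxcl1 had 0 and 2, and the receptor gene Cxcr2 had 3 and 0.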
